A study of Mus musculus with 18 samples.

Results

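Interferon-stimulated genes are the genes that cells switch on after interferon binds its receptors. A set of 43 of them, chosen by name with earlier results of these data known, was followed in 18 tumors of the mouse osteosarcoma cell line K7M2. All 43 were found among the 20878 genes of the expression matrix. By role, they comprise 5 factors of interferon signalling, 5 sensors of RNA or other nucleic acids, 4 genes of the IFIT family, 5 of the OAS family, 13 other antiviral effectors, 5 guanylate-binding proteins, and 6 immunity-related GTPases.

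The K7M2 cells, which come from Balb/c mice, carried a lentiviral shRNA against *Atrx* (*ATRXKD*) or a control shRNA (*ATRXCT*). Whether each was 1 clone or a mixed population is not given in the sources used here. Each mouse, a female of 6 to 8 weeks, received 500000 cells, which were placed subcutaneously. Hosts were immunocompetent Balb/c mice or NSG mice, which are of the NOD strain, carry the *Prkdc* scid and *Il2rg* mutations, and lack T, B, and NK cells. The tumors carry different mouse numbers and fell into 4 Balb/c *ATRXCT* tumors (mice 41, 43, 44, and 45), 4 Balb/c *ATRXKD* tumors (mice 56, 58, 59, and 60), 5 NSG *ATRXCT* tumors (mice 1 to 5), and 5 NSG *ATRXKD* tumors (mice 26 to 30). Values per tumor are given in this order throughout. Whole cages of 5 mice were assigned to one cell population, so that cage and knock-down cannot be told apart, and strain and immune status of the hosts cannot be told apart either. Each tumor holds grafted cells together with host cells, whose RNA was measured as a mixture.

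Type I interferons act through the receptor-bound kinases JAK1 and TYK2, which lead to a complex with STAT2 and IRF9 that binds a promoter element called ISRE. Interferon-gamma, made mainly by T and NK cells, acts through another promoter element, called GAS. The IFIT, OAS, and Mx genes and *Isg15* are classical targets of the type I pathway, whereas guanylate-binding proteins and immunity-related GTPases also respond strongly to interferon-gamma.

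Expression was measured by sequencing ribo-depleted total RNA and was deposited as log2 (FPKM + 1). The FPKM of a gene is its number of fragments scaled to transcript length and library size. The estimated depth was 15150000 to 25200000 fragments per tumor. Counts per gene were not recovered from these values, so no counting interval is given. *Atrx* itself was at 13.4, 26.0, 10.3, and 20.7 FPKM in the Balb/c *ATRXCT* tumors, and 21.5, 7.88, 9.11, and 17.3 FPKM in the Balb/c *ATRXKD* tumors. In NSG hosts, it was at 16.2, 11.6, 24.4, 15.1, and 20.5 FPKM in *ATRXCT* tumors, and 8.42, 16.4, 8.59, 8.88, and 8.59 FPKM in *ATRXKD* tumors. The ranges overlapped in both hosts, and the difference was −0.34 (standard error 0.36, adjusted p = 0.999) on the log2 scale in Balb/c hosts and −0.74 (standard error 0.22, adjusted p = 0.0610) in NSG hosts, with limma. Under 7 alternatives of processing, the limma difference ran from −0.66 to −0.28 in Balb/c hosts, with an adjusted p of at least 0.390. In NSG hosts, it ran from −0.84 to −0.74, with an adjusted p of 0.000976 to 0.132. For the cell line itself, the paper reports a loss of ATRX protein by western blot. The T cell markers separated the hosts, with a mean log2 (FPKM + 1) over 11 genes of 1.85 to 2.54 in Balb/c tumors and 0.121 to 0.344 in NSG tumors. The 6 B cell markers did not, with a low mean in the *ATRXCT* tumors of both Balb/c (0.437) and NSG hosts (0.435) and in the *ATRXKD* tumors of both (0.447 and 0.384). Of 7 osteoblast markers, *Col1a1*, *Spp1*, and *Runx2* were abundant, whereas *Sp7* and *Ibsp* were at most 0.195 FPKM in every tumor.

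**Figure D1:**
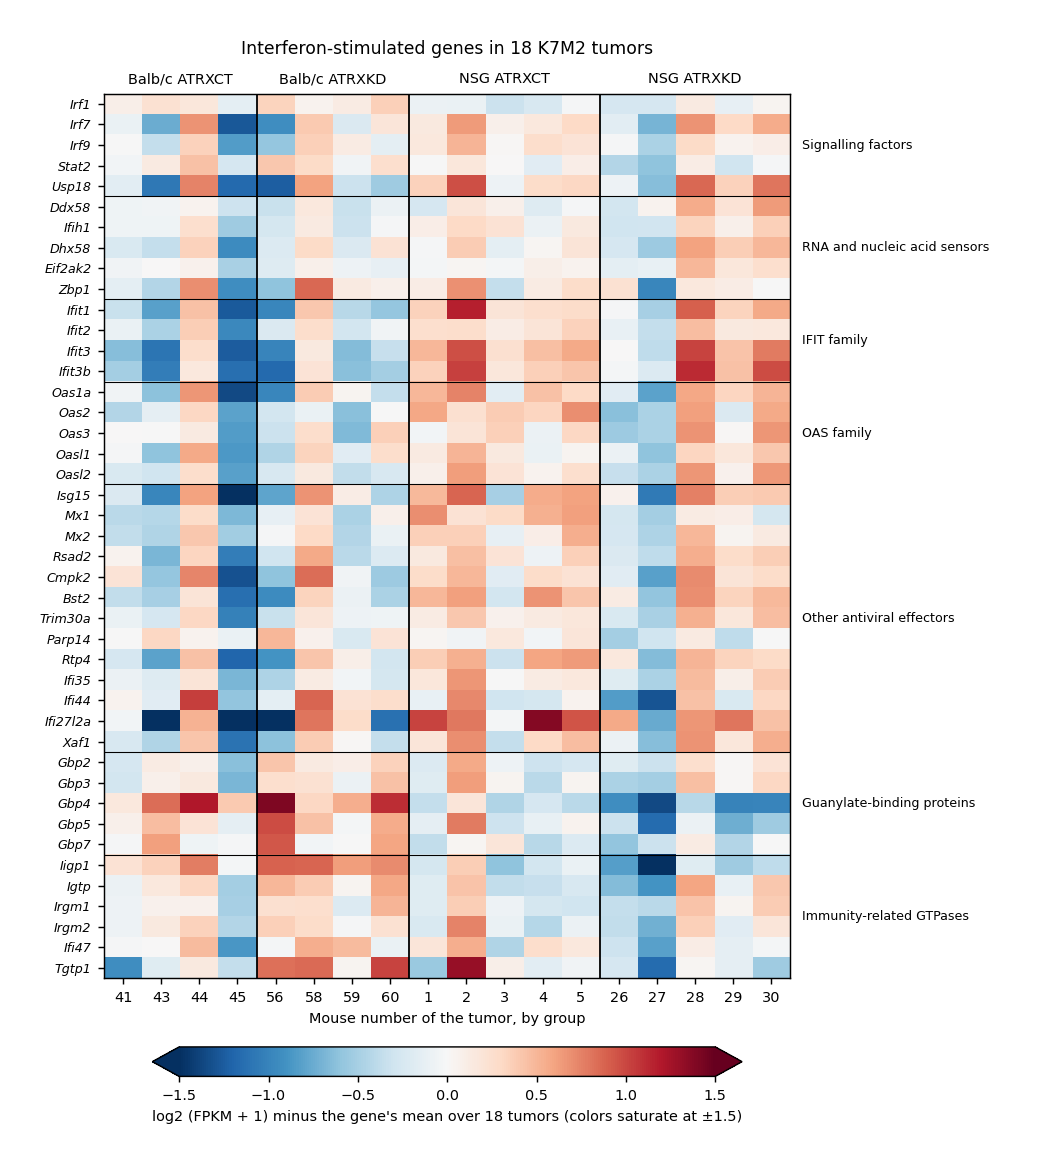
Each row is an interferon-stimulated gene, grouped by role, and each column is a tumor, named by mouse number and grouped by host and shRNA. Color shows log2 (FPKM + 1) minus the mean of the gene over the 18 tumors, and the tumors of mice 45 and 27 are low for most rows while those of mice 44, 2, and 28 are high.

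All 43 genes were expressed in these tumors. Averaged over the 18 tumors, the FPKM, which is scaled to transcript length, was highest for *Ifi27l2a* at 460.3 FPKM, followed by the membrane tether *Bst2* at 204 FPKM and the transcription factor *Irf7* at 109 FPKM. The lowest were *Mx2* at 6.5 FPKM and *Tgtp1* at 6.07 FPKM. Of the IFIT genes, which bind viral RNA, *Ifit1* at 54.1, *Ifit2* at 41.2, *Ifit3* at 46.7, and *Ifit3b* at 16.4 FPKM were expressed on average. The OAS genes, which sense double-stranded RNA or are related to those that do, were *Oas1a* at 31.2, *Oas2* at 12.0, *Oas3* at 11.5, *Oasl1* at 36.7, and *Oasl2* at 29.0 FPKM. The guanylate-binding proteins, GTPases that act against intracellular pathogens, were *Gbp2* at 72.4, *Gbp3* at 38.2, *Gbp4* at 29.1, *Gbp5* at 11.3, and *Gbp7* at 34.6 FPKM. Within each of these 3 families, the highest member exceeded the lowest by more than 3-fold. The immunity-related GTPases were *Iigp1* at 40.6, *Igtp* at 27.7, *Irgm1* at 44.5, *Irgm2* at 21.7, *Ifi47* at 63.2, and *Tgtp1* at 6.07 FPKM, and the sensors *Ddx58* at 35.4, *Ifih1* at 17.0, *Dhx58* at 16.7, *Eif2ak2* at 22.1, and *Zbp1* at 64.2 FPKM. Of the other effectors, the antiviral enzyme viperin (*Rsad2*) was at 42.9 FPKM and its neighbor *Cmpk2*, a nucleotide kinase, at 24.3 FPKM. The rest were *Mx1* at 13.7, *Trim30a* at 49.2, *Parp14* at 23.8, *Rtp4* at 43.7, *Ifi35* at 44.3, *Ifi44* at 42.7, and *Xaf1* at 26.4 FPKM. All 43 passed the filter of a mean of at least 0.1 FPKM in each comparison.

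The members varied more between tumors of the same group than genes at large, by the median. The within-group SD of log2 (FPKM + 1) had a median of 0.400 over the members and 0.232 over all 14803 genes tested across the 4 groups. It ranged from 0.153 for *Irf1* to 1.00 for *Ifi27l2a*. The members and all genes were not matched for level. Members averaged 6.07 to 460.3 FPKM, whereas genes tested went down to a mean of 0.1 FPKM. The 1 added to FPKM before the log narrows the SD of such low genes. The 4 groups accounted for a median of 24.9% of a member's variance, against 28.2% over all genes tested. This share was highest for *Gbp4* at 81.3%, *Iigp1* at 71.9%, *Mx1* at 57.3%, and *Ifit3* at 57.0%, and lowest for *Cmpk2* at 8.69%.

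Among the signalling factors, *Irf7*, the amplifier of the type I response, was at 95.2, 60.8, 164, and 41.9 FPKM in the Balb/c *ATRXCT* tumors, and 53.3, 135, 88.1, and 116 FPKM in the Balb/c *ATRXKD* tumors. It was at 113, 159.5, 108, 114, and 126 FPKM in the NSG *ATRXCT* tumors, and 91.5, 62.9, 163, 126, and 151 FPKM in the NSG *ATRXKD* tumors. In units of FPKM, the highest tumor of each group exceeded the lowest by more than any shift between the group means, and all 4 ranges overlapped.

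*Usp18*, which dampens signalling at the type I receptor, was at 28.5, 14.7, 54.2, and 13.7 FPKM in the Balb/c *ATRXCT* tumors, and 13.0, 49.2, 25.3, and 21.8 FPKM in the Balb/c *ATRXKD* tumors. It was at 41.0, 63.4, 30.4, 38.8, and 39.9 FPKM in the NSG *ATRXCT* tumors, and 30.4, 20.2, 59.1, 41.0, and 56.6 FPKM in the NSG *ATRXKD* tumors. The same tumors were high and low as for *Irf7*, and the ranges of the groups overlapped. *Irf9*, the DNA-binding subunit of the ISRE-binding complex, was at 22.9, 17.6, 29.4, and 12.4 FPKM in the Balb/c *ATRXCT* tumors, and 15.0, 29.7, 25.1, and 20.6 FPKM in the Balb/c *ATRXKD* tumors, and at 25.7, 33.0, 23.2, 27.8, and 26.7 FPKM in the NSG *ATRXCT* tumors, and 22.7, 16.2, 28.2, 23.7, and 24.7 FPKM in the NSG *ATRXKD* tumors.

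*Stat2*, the partner of *Irf9* in that complex, was at 17.5, 19.8, 24.6, and 14.9 FPKM in the Balb/c *ATRXCT* tumors, and 24.0, 22.1, 17.2, and 21.5 FPKM in the Balb/c *ATRXKD* tumors, and at 17.8, 20.2, 17.9, 15.8, and 19.2 FPKM in the NSG *ATRXCT* tumors, and 12.9, 11.4, 19.5, 14.4, and 17.7 FPKM in the NSG *ATRXKD* tumors. *Irf1*, the factor most tied to interferon-gamma, was at 86.9, 96.1, 92.02, and 74.1 FPKM in the Balb/c *ATRXCT* tumors, and 104, 85.2, 89.4, and 105 FPKM in the Balb/c *ATRXKD* tumors, and at 77.1, 76.4, 65.4, 69.2, and 80.8 FPKM in the NSG *ATRXCT* tumors, and 68.4, 68.7, 89.8, 74.8, and 84.3 FPKM in the NSG *ATRXKD* tumors. *Irf1* was the steadiest member, and its tumors spanned less than 2-fold from lowest to highest. None of these 5 factors passed the adjusted threshold in the main fit of any comparison, where 0% to 6.78% of all genes tested did.

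Of the sensors, *Ddx58*, which encodes the RNA sensor RIG-I, was at 33.1, 33.5, 35.9, and 27.7 FPKM in the Balb/c *ATRXCT* tumors, and 27.4, 38.9, 27.4, and 32.5 FPKM in the Balb/c *ATRXKD* tumors, and at 29.1, 39.6, 36.8, 30.2, and 34.2 FPKM in the NSG *ATRXCT* tumors, and 28.5, 35.9, 51.7, 40.3, and 54.6 FPKM in the NSG *ATRXKD* tumors. *Ifih1*, which encodes MDA5, was at 15.9, 16, 20.1, and 11.3 FPKM in the Balb/c *ATRXCT* tumors, and 13.8, 18.5, 13.2, and 16.6 FPKM in the Balb/c *ATRXKD* tumors, and at 17.97, 20.9, 19.7, 15.6, and 18.7 FPKM in the NSG *ATRXCT* tumors, and 13.4, 13.5, 21.4, 17.6, and 21.7 FPKM in the NSG *ATRXKD* tumors. The ranges overlapped between all groups for both genes. The 5 sensors, which also include the MDA5 and RIG-I cofactor *Dhx58*, the kinase PKR (*Eif2ak2*), and the Z-nucleic acid sensor *Zbp1*, gave 0 adjusted calls in the main fits of all comparisons. Of all genes tested, 0% to 6.78% passed the adjusted p in these fits.

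*Isg15*, the ubiquitin-like modifier, was at 73.2, 42.6, 129, and 29.6 FPKM in the Balb/c *ATRXCT* tumors, and 48.5, 136, 91.9, and 61.5 FPKM in the Balb/c *ATRXKD* tumors. It was at 119, 156, 59.8, 126, and 129.8 FPKM in the NSG *ATRXCT* tumors, and 89.2, 40.3, 144, 110.2, and 112 FPKM in the NSG *ATRXKD* tumors. Its highest and lowest tumor differed more than 3-fold in Balb/c *ATRXCT* and NSG *ATRXKD* tumors, and no comparison of groups passed the adjusted threshold in the main fits.

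Promoter sequences are shown because ISRE and GAS are the elements through which interferon is known to act. In the RefSeq sequences of build GRCm38.p6 (mm10), 32 of the 43 members had a promoter entry, which holds 250 bases before and 50 after the annotated start. *Gbp4*, *Iigp1*, *Mx1*, *Mx2*, *Ifi27l2a*, *Oas2*, *Usp18*, *Dhx58*, *Zbp1*, *Rtp4*, and *Parp14* had no entry and were not searched. The ISRE was searched as GAAANNGAAA on both strands and was present in 21 of the 32 members (65.6%), against 3.99% of all 27025 genes. The GAS motif TTCNNNGAA, which reads the same on both strands, was present in 11 of the 32 (34.4%), against 9.55% of all genes. Among members with an entry, an ISRE was found in 4 of 4 guanylate-binding proteins, 4 of 5 immunity-related GTPases, 3 of 4 IFIT genes, and 3 of 3 sensors. It was found in 2 of 4 OAS genes, 4 of 8 other antiviral effectors, and 1 of 4 signalling factors, namely *Stat2*. *Irf1* held a GAS motif 90 bases before its start and no ISRE in this window. A match describes letters and not a binding site.

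For the 2 members with a called host difference and a match, *Ifit3* and *Gbp5*, the 250 bases before the start are printed with the matches in capitals. *Gbp4* and *Iigp1*, which also had a called host difference, could not be searched for lack of an entry. The upstream sequence of *Ifit3* holds 2 ISRE matches on the minus strand, 156 and 122 bases before the start, and that of *Gbp5* holds an ISRE match 165 bases and GAS matches 245 and 52 bases before the start.
*Ifit3* (chr19:34583279-34583528, plus strand): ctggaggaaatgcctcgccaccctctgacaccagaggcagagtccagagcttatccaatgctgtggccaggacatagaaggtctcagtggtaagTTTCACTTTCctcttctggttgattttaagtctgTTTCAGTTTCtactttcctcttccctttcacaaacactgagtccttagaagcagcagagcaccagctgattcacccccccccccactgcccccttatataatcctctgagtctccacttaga
*Gbp5* (chr3:142496684-142496933, plus strand): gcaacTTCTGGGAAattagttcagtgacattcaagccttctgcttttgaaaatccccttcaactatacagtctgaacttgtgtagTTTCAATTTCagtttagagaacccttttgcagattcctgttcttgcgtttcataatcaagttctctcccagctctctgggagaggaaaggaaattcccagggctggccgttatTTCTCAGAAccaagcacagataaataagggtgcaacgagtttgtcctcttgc

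Shorter stretches show arrangements shared between members, chosen after their sequences were seen. In *Igtp*, *Irgm2*, and *Tgtp1*, a GAS match was followed by an ISRE match whose start lay 11 bases further on, and 3 ISRE matches overlapped in *Isg15*. *Ifit3* and *Ifit3b* carried the same 56 bases around both of their ISRE matches, and *Ifit1* carried 2 matches 19 bases apart. Each stretch is read 5′ to 3′ in the direction of the gene, and matches are in capitals.
*Igtp* (chr11:58199505-58199537, plus strand): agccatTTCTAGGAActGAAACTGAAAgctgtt
*Irgm2* (chr11:58214896-58214928, plus strand): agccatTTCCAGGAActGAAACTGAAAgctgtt
*Tgtp1* (chr11:48992308-48992340, minus strand): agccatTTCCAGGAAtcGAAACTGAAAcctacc
*Isg15* (chr4:156200869-156200902, minus strand): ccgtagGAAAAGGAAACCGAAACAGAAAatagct
*Ifit1* (chr19:34640779-34640819, plus strand): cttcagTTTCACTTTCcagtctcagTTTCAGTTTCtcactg
*Ifit3b* (chr19:34607763-34607818, plus strand): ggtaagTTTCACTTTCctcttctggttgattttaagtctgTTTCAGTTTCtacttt

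The first question of the design was whether *Atrx* knock-down alters expression in tumors of immunocompetent hosts. Between Balb/c *ATRXKD* and *ATRXCT* tumors, 0 of the 43 interferon-stimulated genes were called (adjusted p under 0.05 and a fold of at least 2 in limma), where 0.0068% of the 14701 genes tested were. At an unadjusted p under 0.05, 3 members were higher, namely *Tgtp1*, *Iigp1*, and *Gbp2*, against 1.72% of all genes tested, and 0 members were lower, against 2.42%. The mean was higher in *ATRXKD* tumors for 41 of 43 members, against 49.2% of genes tested, and the median difference was 0.22 on the log2 scale, against −0.0032 over all genes. Without the Balb/c *ATRXCT* tumor of mouse 45, however, only 24 of 43 means were higher. The groups overlapped for all 43 members, whereas they did not for 3.18% of genes tested. The 95% interval of the difference lay within a 2-fold change for 33 members and reached 2-fold for 10.

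The differences ran from 0.20 to 0.42 over the 5 guanylate-binding proteins, from 0.22 to 1.01 over the 6 immunity-related GTPases, and from 0.03 to 0.40 over the 13 other antiviral effectors. They ran from 0.10 to 0.23 over the IFIT genes, from 0.01 to 0.22 over the OAS genes, from 0.04 to 0.22 over the signalling factors, and from −0.05 to 0.32 over the sensors.

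*Tgtp1*, an immunity-related GTPase that acts on the membranes around intracellular parasites, had the lowest p of the members in Balb/c hosts. It was at 2.34, 4.65, 6.08, and 3.97 FPKM in the Balb/c *ATRXCT* tumors, and 10.3, 10.5, 5.58, and 11.9 FPKM in the Balb/c *ATRXKD* tumors. The *ATRXCT* tumor of mouse 44, at 6.08 FPKM, exceeded the *ATRXKD* tumor of mouse 59, at 5.58 FPKM, and the difference of 1.01 (standard error 0.28, adjusted p = 0.634) with limma did not pass. *Iigp1*, of the same GTPase family, differed by 0.44 (standard error 0.17, adjusted p = 0.999), and *Gbp2* by 0.42 (standard error 0.18, adjusted p = 0.999). For *Tgtp1*, 77.2% of the 75 nt windows of the transcript are shared with other genes, mostly with its neighbor *Tgtp2*, so that the split of reads between both genes is uncertain. *Tgtp2* was at 11.8 ± 4.67 FPKM in *ATRXCT* and 16.9 ± 1.62 FPKM in *ATRXKD* tumors (SD, n = 4 each), a difference of 0.55 (standard error 0.23, adjusted p = 0.999).

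**Figure D2:**
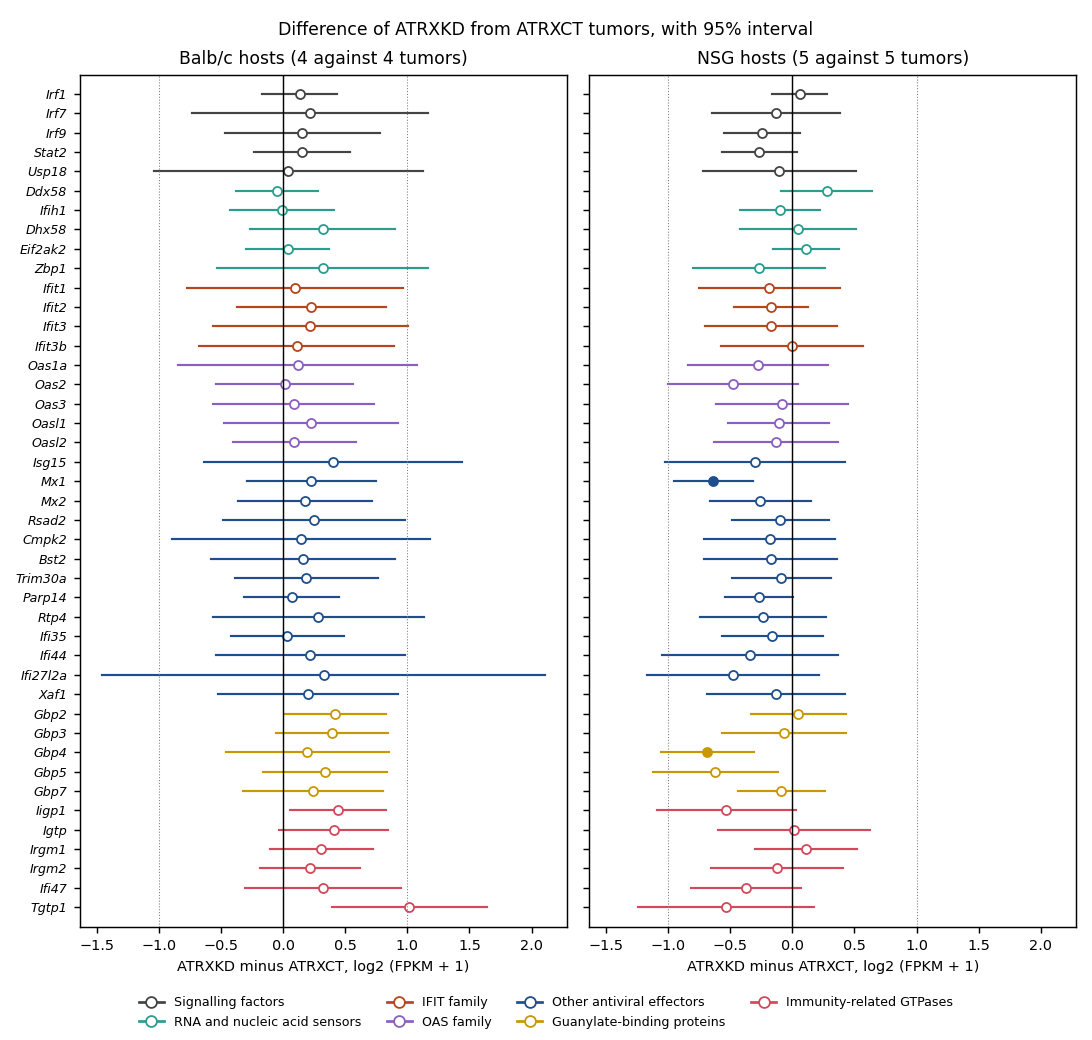
Points are the difference of *ATRXKD* from *ATRXCT* tumors in log2 (FPKM + 1) for each member, with its 95% interval from limma, in Balb/c hosts (left) and NSG hosts (right). Filled points mark an adjusted p under 0.05, which are *Mx1* and *Gbp4* in NSG hosts, and dotted lines mark a 2-fold change.

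In NSG hosts, the same comparison asks for the knock-down effect without T, B, and NK cells of the host. Again 0 of 43 members were called, where 0.464% of 14654 genes tested were. Without the fold threshold, 2 members were lower in *ATRXKD* tumors, *Mx1* and *Gbp4*, against 3.05% of genes tested, and 0 members were higher, against 3.73%. The mean was lower for 36 of 43 members, against 50.2% of genes tested, with a median difference of −0.17. This direction rested on single libraries, since 22 of 43 means were higher without the tumor of mouse 27 and 25 were higher with libraries weighted by quality. The 95% interval lay within a 2-fold change for 36 members and reached 2-fold for 7. All 13 other antiviral effectors had a lower mean, with differences from −0.64 to −0.09, and all 5 OAS genes did, from −0.47 to −0.08, whereas 3 of 5 sensors had a higher mean.

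*Mx1*, a gene of the dynamin-like GTPase family, was at 22.03, 15.5, 16.4, 19.6, and 20.7 FPKM in the NSG *ATRXCT* tumors, and 10.8, 8.97, 14.5, 14.2, and 10.8 FPKM in the NSG *ATRXKD* tumors. Each *ATRXKD* tumor lay below each *ATRXCT* tumor, the pattern shown by 3.14% of genes tested and by no other member in this comparison. The mean was 18.8 ± 2.81 FPKM in *ATRXCT* and 11.8 ± 2.40 FPKM in *ATRXKD* tumors (SD, n = 5 in both), and the log2 change was −0.64 (standard error 0.14, adjusted p = 0.0288) with limma (exact permutation test, two-sided, p = 0.00794). The adjusted p was above 0.05 without the *ATRXCT* tumor of mouse 1 (0.0709), 4 (0.0725), or 5 (0.0613), or the *ATRXKD* tumor of mouse 30 (0.0878). In Balb/c hosts, *Mx1* was at 9.68, 9.56, 16.2, and 7.87 FPKM in the Balb/c *ATRXCT* tumors, and 12.0, 15.3, 9.20, and 13.9 FPKM in the Balb/c *ATRXKD* tumors, with a difference of 0.23 (standard error 0.23, adjusted p = 0.999).

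*Gbp4*, a guanylate-binding protein, was at 19.3, 28.3, 17.98, 20.7, and 18.6 FPKM in the NSG *ATRXCT* tumors, and 12.5, 9.09, 18.4, 11.9, and 12.1 FPKM in the NSG *ATRXKD* tumors. The highest *ATRXKD* tumor, at 18.4 FPKM, lay within the range of the *ATRXCT* tumors, and the other 4 lay below it. The log2 change of −0.68 (standard error 0.17, adjusted p = 0.0394) with limma had an exact permutation p of 0.0159, and the adjusted p rose to between 0.0602 and 0.105 when the tumor of mouse 1, 2, 4, 5, 27, 29, or 30 was left out. It was 0.0593 with no filter and 0.0819 in the fit of all 4 groups. *Gbp5* was the third member with an unadjusted p under 0.05, with a difference of −0.62 (standard error 0.23, adjusted p = 0.114). Of 10 macrophage markers, 9 moved in the same direction in these tumors and 1 was higher, with a log2 difference of 0.37. Their mean over 10 genes was 6.91 to 7.56 in *ATRXCT* and 6.54 to 7.01 in *ATRXKD* tumors, with 0 of 10 at 0 (exact permutation test, p = 0.0159, adjusted p = 0.102 over 32 marker tests). Endothelial markers moved the other way, with a mean over 7 genes of 2.00 in *ATRXCT* and 2.72 in *ATRXKD* tumors, higher for 7 of 7 genes (exact permutation test, p = 0.0317, adjusted p = 0.145). The part of either in the change of *Mx1* and *Gbp4* was not tested. In such bulk RNA, fewer cells of a type and less RNA per cell cannot be told apart.

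The hosts were compared next, first with control cells. Between NSG and Balb/c *ATRXCT* tumors, 1 of 43 members was called higher in NSG hosts, *Ifit3*, where 0.546% of 14828 genes tested were, and 0 were called lower, where 0.883% were. At an unadjusted p under 0.05, 13 members were higher, against 7.87% of genes tested, and 2 were lower, against 11.5%. The mean was higher in NSG hosts for 33 of 43 members (35 with median-ratio scaling), against 48.7% of genes tested, with a median difference of 0.41 on the log2 scale. The roles divided in this comparison. The median difference was 1.01 over the 4 IFIT genes, 0.51 over the 5 OAS genes, and 0.55 over the 13 other antiviral effectors, but −0.09 over the 5 guanylate-binding proteins and 0.0028 over the 6 immunity-related GTPases.

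*Ifit3*, a member of the family that binds foreign RNA and scaffolds the antiviral signal, was at 26.6, 19.1, 50.5, and 17.0 FPKM in Balb/c *ATRXCT* tumors and 59.4, 82.8, 49.7, 57.7, and 62.7 FPKM in NSG *ATRXCT* tumors. Only the Balb/c tumor of mouse 44, at 50.5 FPKM, reached the NSG range, whose lowest tumor was mouse 3 at 49.7 FPKM. The mean rose from 28.3 ± 15.4 (SD, n = 4) to 62.5 ± 12.3 FPKM (SD, n = 5), a ratio of 2.205 and a log2 change of 1.22 (standard error 0.28, adjusted p = 0.0418) with limma (exact permutation test, two-sided, p = 0.0317).

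The neighboring gene *Ifit3b* was at 9.94, 6.59, 16.4, and 6.09 FPKM in Balb/c *ATRXCT* tumors and 18.8, 30.7, 16.5, 18.9, and 19.8 FPKM in NSG *ATRXCT* tumors. The lowest NSG tumor, at 16.5 FPKM, was just above the highest Balb/c tumor, at 16.4 FPKM. This was the only member whose groups did not overlap, against 2.85% of genes tested, and its difference was 1.09 (standard error 0.27, adjusted p = 0.0552) with limma (exact permutation test, p = 0.0159, the smallest that 4 against 5 tumors allow). Under 7 alternatives of processing, the adjusted p of *Ifit3b* with limma ran from 0.00448 to 0.0914. The transcripts share sequence, with 41.1% of the 75 nt windows of *Ifit3* also in *Ifit3b*, so the division of reads between them is uncertain although both differed in the same direction.

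The call of *Ifit3* depended on the tumors included. It held in 2 of the 9 fits that each left out 1 tumor, those without the Balb/c tumor of mouse 44 (adjusted p = 0.00143) and without the NSG tumor of mouse 3 (0.0363). The adjusted p was 0.09995 without mouse 41, 0.147 without 43, 0.111 without 45, 0.0857 without 1, 0.0993 without 2, 0.0859 without 4, and 0.0916 without 5. Without the tumor of mouse 44, 7 members were called higher, namely *Bst2*, *Ifi27l2a*, *Ifit1*, *Ifit3*, *Ifit3b*, *Rtp4*, and *Usp18*, and the share of all genes called higher was 0.807% in that fit. Without that of mouse 3, 3 members and 0.629% of all genes were called higher, without that of mouse 41 or 2 only *Gbp4* was, in the other direction, and with any of mice 43, 45, 1, 4, or 5 left out, 0 members were. In these other 7 fits, 0.338% to 0.438% of all genes were called higher.

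Further antiviral genes differed by sizeable amounts that did not pass in the main fit. *Ifi27l2a*, an interferon-induced mitochondrial protein and the most abundant member, was at 356, 127, 527, and 63.1 FPKM in Balb/c and 744, 636, 359, 956, and 704 FPKM in NSG *ATRXCT* tumors. The Balb/c tumors alone spanned more than 8-fold, and the difference was 1.71 (standard error 0.55, adjusted p = 0.135), with a 95% interval of 0.49 to 2.93. *Mx1* was at 10.8 ± 3.68 against 18.8 ± 2.81 FPKM (SD, n = 4 and 5), a difference of 0.78 (standard error 0.19, adjusted p = 0.0563). *Oas2*, which makes the second messenger of RNase L, differed by 0.71 (standard error 0.21, adjusted p = 0.1004), *Bst2* by 0.84 (standard error 0.27, adjusted p = 0.134), *Ifit1* by 0.94 (standard error 0.32, adjusted p = 0.156), and *Isg15* by 0.93 (standard error 0.40, adjusted p = 0.241). Under 7 alternatives of processing, the adjusted p with limma ran from 0.0245 to 0.203 for *Ifi27l2a* and 0.00136 to 0.0853 for *Mx1*. It ran from 0.00465 to 0.142 for *Oas2* and 0.0058 to 0.189 for *Bst2*. For *Ifit1* it ran from 0.0297 to 0.220, and for *Isg15* from 0.0295 to 0.326.

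*Gbp4* moved the other way. It was at 27.9, 45.3, 58.6, and 32.9 FPKM in Balb/c and 19.3, 28.3, 17.98, 20.7, and 18.6 FPKM in NSG *ATRXCT* tumors, where the NSG tumor of mouse 2 overlapped the Balb/c tumor of mouse 41. The log2 change of −0.90 (standard error 0.21, adjusted p = 0.0484) with limma passed the adjusted p but not the 2-fold threshold, and 2.09% of genes tested were lower at that p. It passed without mouse 41 or 2, whereas the adjusted p was 0.157 without 43, 0.0521 without 44, 0.0669 without 45, 0.112 without 1, 0.0558 without 3, 0.109 without 4, and 0.111 without 5. It was also above 0.05 with a filter of 1 FPKM (0.0551), with no filter (0.0776), and with the length trend removed (0.0876).

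With knock-down cells, the host comparison had no tumor in common with that of control cells. Between NSG and Balb/c *ATRXKD* tumors, 3 members were called lower in NSG hosts, *Gbp4*, *Iigp1*, and *Gbp5*, where 1.12% of 14669 genes tested were. None of the members was called higher, where 0.266% of genes were, and 2 were higher at an unadjusted p under 0.05, *Ifit3* and *Ifit3b*, against 6.5% of genes tested. The mean was lower for 5 of 5 guanylate-binding proteins, with a median difference of −0.61, and for 6 of 6 immunity-related GTPases, with a median of −0.48. For the 4 IFIT genes it was higher, with a median of 0.74, and for the 5 OAS genes higher, with a median of 0.23. Over all 43 members, the mean was higher for 26, against 52.9% of genes tested, and for 21 without the NSG tumor of mouse 28.

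*Gbp4*, from 105115767 to 105139586 on the minus strand of chromosome 5, was at 67.6, 31.1, 36.8, and 54.8 FPKM in Balb/c and 12.5, 9.09, 18.4, 11.9, and 12.1 FPKM in NSG *ATRXKD* tumors. Each NSG tumor was below each Balb/c tumor. The mean fell from 47.6 ± 16.7 (SD, n = 4) to 12.8 ± 3.42 FPKM (SD, n = 5), 3.71-fold lower in NSG hosts, and limma gave a log2 change of −1.78 (standard error 0.24, adjusted p = 0.00211).

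*Iigp1*, an immunity-related GTPase on chromosome 18 that disrupts the vacuoles of intracellular pathogens, was at 68.8, 68.6, 57.6, and 61.0 FPKM in Balb/c and 20.5, 11.4, 32.3, 25.3, and 28.2 FPKM in NSG *ATRXKD* tumors, again without overlap. Its mean fell from 64.0 ± 5.64 (SD, n = 4) to 23.5 ± 8.04 FPKM (SD, n = 5), 2.72-fold lower, and limma gave a log2 change of −1.48 (standard error 0.25, adjusted p = 0.00785). Both *Gbp4* and *Iigp1* were called in all 9 fits that left out 1 tumor. No 75 nt window of *Iigp1* is shared with another gene, and 4.90% of those of *Gbp4* are. In control cells, *Iigp1* was at 43.2, 47.3, 63.8, and 36.3 FPKM in Balb/c and 30.7, 48.0, 23.9, 30.2, and 34.4 FPKM in NSG hosts, a difference of −0.50 (standard error 0.21, adjusted p = 0.219).

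*Gbp5*, which promotes inflammasome assembly and whose upstream sequence is printed, was at 21.8, 14.62, 10.3, and 16.04 FPKM in Balb/c and 8.24, 4.21, 9.86, 5.98, and 6.98 FPKM in NSG *ATRXKD* tumors, and the lowest Balb/c tumor stood above the highest NSG tumor. Its mean fell from 15.7 ± 4.73 (SD, n = 4) to 7.05 ± 2.15 FPKM (SD, n = 5), for which limma gave a log2 change of −1.05 (standard error 0.24, adjusted p = 0.0423). With libraries weighted by quality the change was −0.77 (adjusted p = 0.0297), under 2-fold, which ended the call, and with no filter the adjusted p was 0.0713. The adjusted p was 0.0979 without mouse 56, 0.0848 without 58, 0.110 without 60, 0.0699 without 27, 0.108 without 29, and 0.101 without 30, and below 0.05 without 59, 26, or 28. In control cells, *Gbp5* differed between hosts by −0.09 (standard error 0.22, adjusted p = 0.816), with a 95% interval of −0.57 to 0.38.

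*Tgtp1* was the fourth member without overlap, at 10.3, 10.5, 5.58, and 11.9 FPKM in Balb/c and 4.35, 1.87, 5.51, 4.83, and 3.43 FPKM in NSG *ATRXKD* tumors. Its difference of −1.09 (standard error 0.27, adjusted p = 0.0528) did not pass in the main fit. Under 7 alternatives of processing, its adjusted p with limma ran from 0.0320 to 0.0906. The 4 members without overlap are 9.3% of the 43, against 5.08% of genes tested that were lower in NSG hosts without overlap (exact permutation test, two-sided, p = 0.0159 for each, the smallest that 4 against 5 tumors allow). *Ifit3* differed by 0.83 (standard error 0.30, adjusted p = 0.196) and *Ifit3b* by 0.98 (standard error 0.33, adjusted p = 0.160) in these knock-down tumors, with the ranges overlapping.

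**Figure D3:**
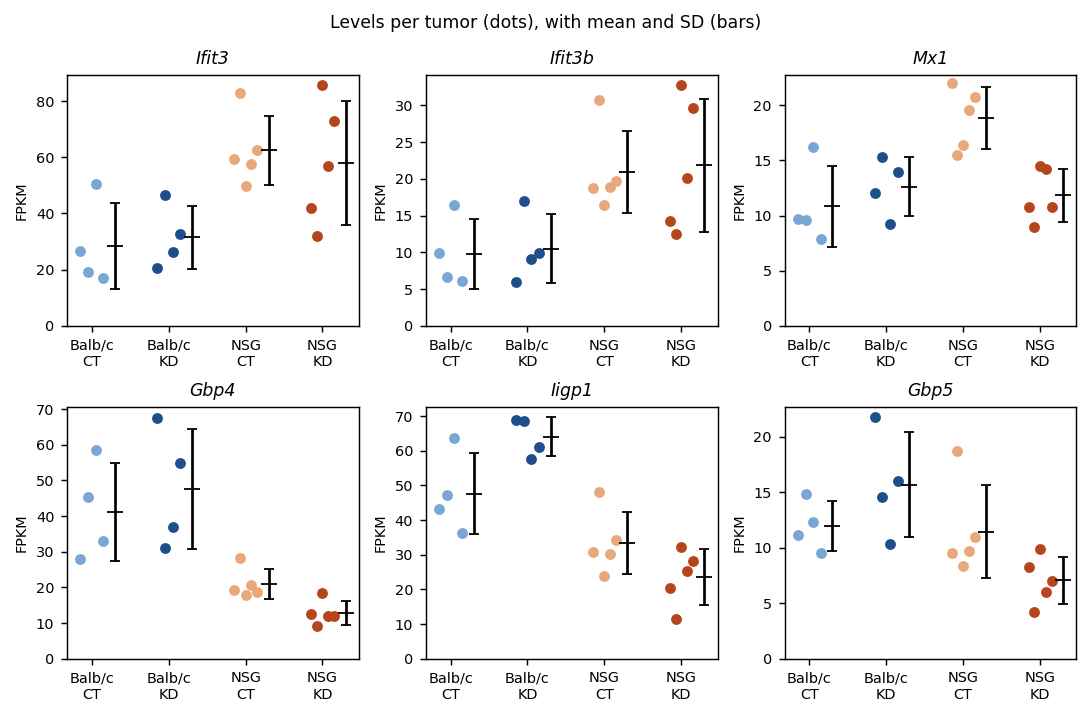
Dots are tumors, with the mean and SD of each group as a bar beside them, in FPKM on a linear axis from 0, for *Ifit3*, *Ifit3b*, *Mx1*, *Gbp4*, *Iigp1*, and *Gbp5*. In NSG tumors *Ifit3* has means of 62.5 and 57.9 FPKM against 28.3 and 31.5 FPKM in Balb/c tumors, whereas *Gbp4* has 21.0 and 12.8 FPKM against 41.2 and 47.6 FPKM.

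**Figure D4:**
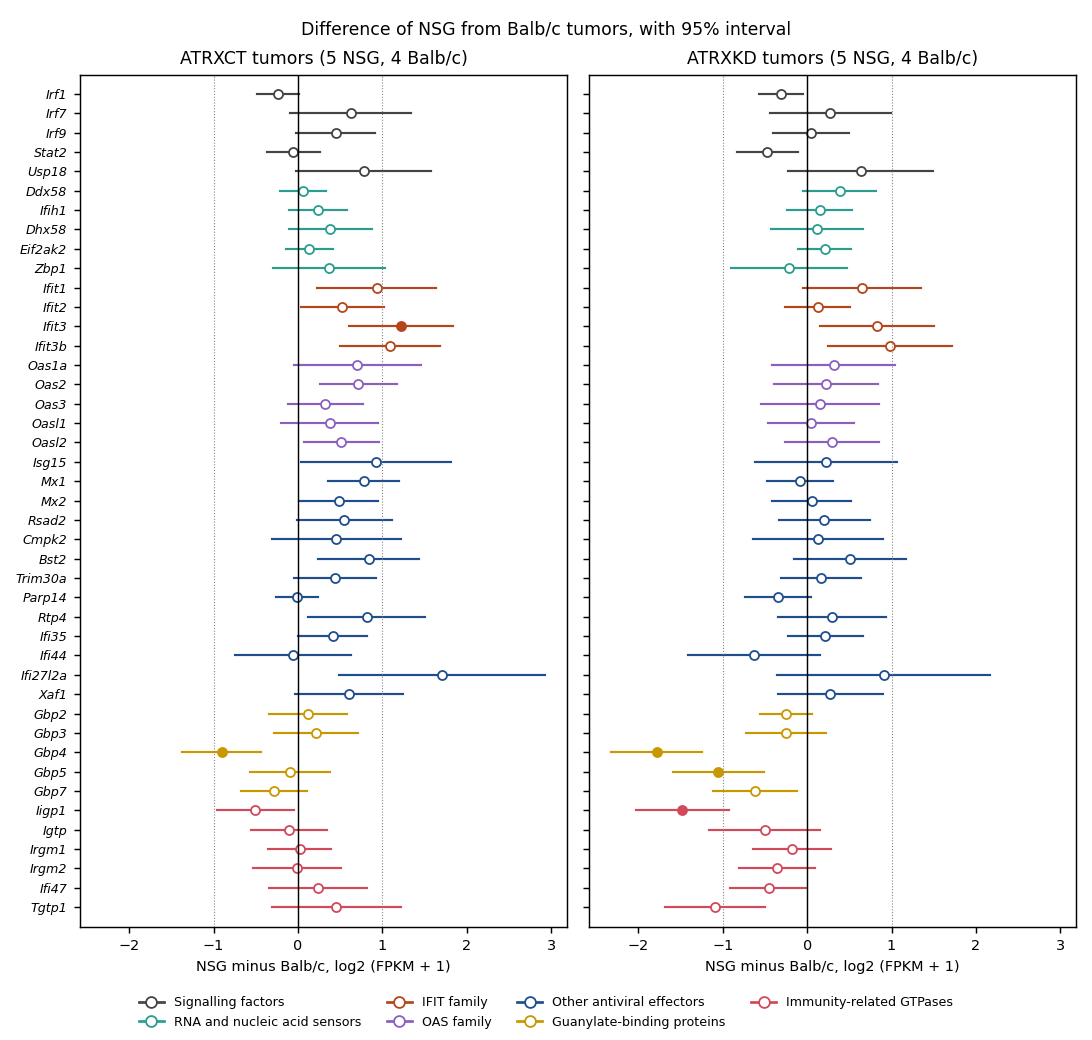
Points are the difference of NSG from Balb/c tumors in log2 (FPKM + 1), with the 95% interval from limma, for control cells (left) and knock-down cells (right). Filled points mark an adjusted p under 0.05, and IFIT genes lie to the right of 0 in both panels while *Gbp4* lies to the left.

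Markers of some cell types differed between hosts, and those of others did not. The NK cell marker mean over 8 genes was 2.68 to 3.18 in Balb/c *ATRXCT* and 2.38 to 3.89 in Balb/c *ATRXKD* tumors, against 0.112 to 0.246 and 0.0878 to 0.239 in the NSG groups. For T and NK cell markers, both host comparisons gave p = 0.0159 (exact permutation test, adjusted p = 0.102, the lowest of 32 marker tests). *Ncr1* was listed at 0 in all 5 NSG *ATRXCT* tumors and *Cd3e* at 0 in all 5 NSG *ATRXKD* tumors. The mean over 6 neutrophil markers was 4.53 in Balb/c and 3.69 in NSG *ATRXKD* tumors (exact permutation test, p = 0.0317, adjusted p = 0.145 over 32 marker tests). Of these, 5 were lower in NSG hosts and 1 was higher, with log2 differences from −1.55 to 0.42. In limma, 2 passed the adjusted p as lower and 1 as higher, where 2.8% and 0.839% of all genes tested did. In *ATRXCT* tumors, the neutrophil marker mean was 4.18 in Balb/c and 3.95 in NSG hosts (exact permutation test, p = 0.365, adjusted p = 0.584). The mean over 7 endothelial markers was lower in NSG hosts for 7 of 7 genes, at 2.79 in Balb/c and 2.00 in NSG *ATRXCT* tumors (exact permutation test, p = 0.0476, adjusted p = 0.169) and at 3.26 and 2.72 in *ATRXKD* tumors (p = 0.0635, adjusted p = 0.203). The means of 6 plasmacytoid dendritic cell markers, cells known for type I interferon, were 1.12 and 1.14 in the *ATRXCT* tumors of Balb/c and NSG hosts. The part of these cells in the values of the members was not tested.

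Whether the knock-down acted differently in the hosts was tested as an interaction over all 4 groups. Of 14803 genes tested, 0 members and 0% of all genes passed the adjusted threshold in limma, and 5 members had an unadjusted p under 0.05, all with a lower effect in NSG hosts, against 4.45% of genes in that direction. These were *Tgtp1*, with a difference of effects of −1.55 (standard error 0.47, adjusted p = 0.291), *Iigp1*, with −0.97 (standard error 0.34, adjusted p = 0.373), *Gbp5*, with −0.96 (standard error 0.34, adjusted p = 0.375), *Gbp4*, with −0.88 (standard error 0.34, adjusted p = 0.404), and *Mx1*, with −0.86 (standard error 0.27, adjusted p = 0.304). With libraries weighted by quality, *Tgtp1* was called at an adjusted p of 0.0365. The estimate was below 0 for 41 of 43 members, against 50.6% of genes tested, with a median of −0.35. It draws on the tumors of both knock-down comparisons. Leaving out 1 tumor gave 24 to 42 higher means in the Balb/c comparison and 4 to 22 in the NSG one. For the interaction, 1 to 8 estimates were then above 0. With weighted libraries, the estimate was below 0 for 34 of 43 members. The 95% interval reached a 2-fold difference of effects for 31 members, so that a difference of that size lay within the error for these members.

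Much of the variation followed single tumors, across roles. Among Balb/c *ATRXCT* tumors, that of mouse 44 was the highest for 37 of 43 members and that of mouse 45 the lowest for 40, whereas these tumors were highest for 32.8% and lowest for 30.5% of all genes tested. In Balb/c *ATRXKD* tumors, mouse 58 was highest for 28 members, against 22.6% of all genes, and mice 59 and 56 were lowest for 20 and 19, against 25.3% and 34.1%. For NSG *ATRXCT* tumors, mouse 2 was highest for 31 members, against 19.2% of all genes, and mouse 3 lowest for 27, against 29.0%. For NSG *ATRXKD* tumors, mouse 28 was highest for 38 members, against 17.4% of all genes, and mouse 27 lowest for 35, against 32.5%.

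**Figure D5:**
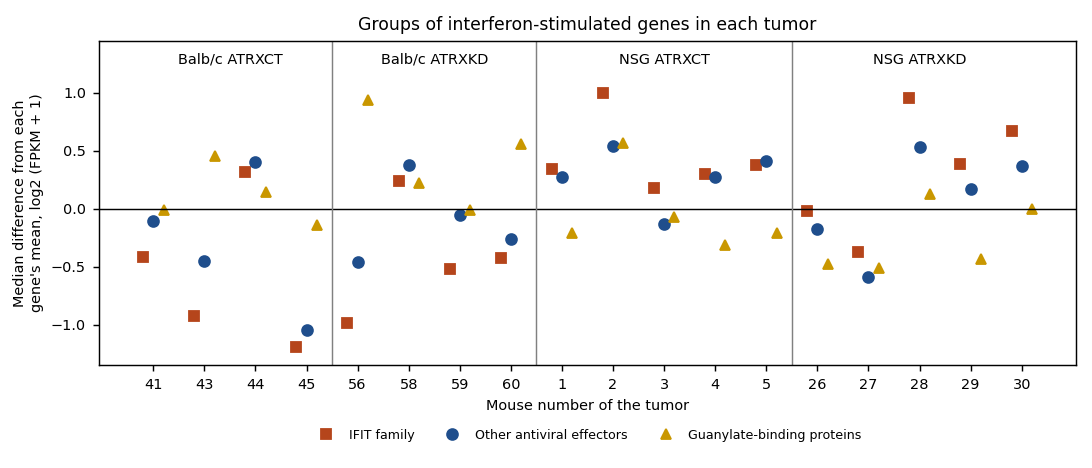
Symbols show, for each tumor, the median over the genes of a role of log2 (FPKM + 1) minus the mean of each gene over the 18 tumors, for the IFIT family (squares), other antiviral effectors (circles), and guanylate-binding proteins (triangles). The deviations include the difference between hosts. In the tumor of mouse 56, guanylate-binding proteins stand at 0.94 and IFIT genes at −0.98.

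Set against the mean of its own group, which takes out the host difference, a tumor often deviated the same way in every role. In the Balb/c *ATRXCT* tumors, all 7 roles had a median deviation above 0 for mouse 44, from 0.25 for the guanylate-binding proteins to 0.86 for the IFIT genes, and below 0 for mouse 45, from −0.71 for the other antiviral effectors to −0.29 for the guanylate-binding proteins. The NSG *ATRXKD* tumors of mice 28 and 27 likewise stood above (0.32 to 0.64) and below (−0.77 to −0.32) in all 7 roles. The Balb/c *ATRXKD* tumor of mouse 56 was divided, with a median deviation of 0.49 for the 5 guanylate-binding proteins and 0.12 for the immunity-related GTPases, and of −0.56 for the 4 IFIT genes. These are values of 1 tumor each, with no test.

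Some tumors also had higher values for long transcripts, with slopes of 0.16, 0.20, 0.24, 0.12, 0.11, and 0.13 log2 units per doubling of transcript length for mice 43, 45, 56, 60, 3, and 27. Mouse 45 was lowest in its group for 40 members, 27 for 35, 3 for 27, 56 for 19, 60 for 1, and 43 for 0. The shares over all genes tested were 30.5%, 32.5%, 29.0%, 34.1%, 21.8%, and 19.5%. The tumors of mice 44, 58, 2, and 28, highest for most members, had slopes of −0.10, −0.11, −0.09, and −0.04. Mice 59 and 4, with slopes of −0.14 and −0.15, were lowest for 20 and 10 members. The part of this trend in the values of the members was not tested. With this trend removed from each library, mouse 44 was highest for 38 members, mouse 45 lowest for 41, mouse 28 highest for 38, and mouse 27 lowest for 38. The shares over all genes tested were then 30.8%, 31.5%, 19.3%, and 30.3%.

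The genes of the pathway around the members were read from lists of interferons, sensing genes, and other inducible genes. *Ifng*, which encodes interferon-gamma, was at 0.619, 1.31, 0.792, and 0.794 FPKM in Balb/c *ATRXCT* and 1.49, 0.689, 1.06, and 1.89 FPKM in Balb/c *ATRXKD* tumors. It was listed at 0 in all NSG tumors but the *ATRXKD* tumor of mouse 26, at 0.104 FPKM, and was lower in NSG hosts at an adjusted p of 0.000424 for control and 0.000989 for knock-down cells in limma. *Ifnb1*, which encodes interferon-beta, was at 0.496, 0.178, 0.401, and 0.286 FPKM in the Balb/c *ATRXCT* tumors, and 0.0648, 0.754, 0.460, and 0.219 FPKM in the Balb/c *ATRXKD* tumors, and at 0.580, 0.828, 0.311, 0.567, and 0.427 FPKM in the NSG *ATRXCT* tumors, and 0.207, 0.0676, 0.525, 0.270, and 0.400 FPKM in the NSG *ATRXKD* tumors. Its ranges overlapped between hosts, with a difference of 0.20 (standard error 0.11, adjusted p = 0.339) for control cells. Of 21 listed interferon genes, 9 were in the matrix.

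Of 21 genes of sensing upstream of interferon, 3 were lower in NSG *ATRXKD* than NSG *ATRXCT* tumors by the adjusted p alone, with log2 differences of −0.38 for *Ikbke*, −0.45 for *Irf5*, and −0.49 for *Irf8*, where 3.05% of 14654 genes tested were. *Irf8*, a factor of myeloid cells, also fell from 40.3 ± 2.31 (SD, n = 4) to 21.0 ± 3.04 FPKM (SD, n = 5) between Balb/c and NSG *ATRXKD* tumors (adjusted p = 0.00115 in limma).

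Other interferon-inducible genes were called in both directions between hosts. Of 54 tested, 2 were called higher and 1 lower in NSG than in Balb/c *ATRXCT* tumors, and 0 higher and 4 lower in *ATRXKD* tumors. Of all genes tested, 0.546% were higher and 0.883% lower in the first comparison, and 0.266% and 1.12% in the second. The higher genes were *Epsti1*, with a log2 change of 1.39 (standard error 0.24, adjusted p = 0.00823), and *Ly6a*, with 1.504 (standard error 0.32, adjusted p = 0.0324). The call of *Ly6a* was lost in 6 of 9 fits that left out 1 tumor, those without mice 41 (adjusted p = 0.0579), 43 (0.0619), 1 (0.0740), 2 (0.0835), 4 (0.0805), and 5 (0.0753). The lower genes were the guanylate-binding proteins *Gbp10* (−1.29 in control and −1.83 in knock-down cells), *Gbp8* (−1.87 in knock-down cells), and *Gbp11* (−1.01 in knock-down cells), and the GTPase *Gm4951* (−1.11 in knock-down cells). *Gbp8*, *Gbp10*, and *Gbp11* lie on chromosome 5, as does *Gbp4*, whereas *Gbp2*, *Gbp3*, *Gbp5*, and *Gbp7* lie on chromosome 3. Of the latter, *Gbp5* was also called lower in knock-down cells. *Gbp6* and *Gbp9*, on the same list as *Gbp8*, were tested and not called. Of 13 genes tied to interferon-gamma, the chemokine *Cxcl9* was called lower in NSG hosts with both kinds of cells, with log2 differences of −1.92 (standard error 0.17, adjusted p = 8.95e-05) and −2.66 (standard error 0.41, adjusted p = 0.00497) with limma.

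Some members share sequence or position with other genes, which leaves their split of reads uncertain. Of the 75 nt windows of *Oas1a*, 47.6% are found in other genes, mostly *Oas1g*, as are 11.3% of those of *Gbp7* and 10.5% of those of *Rtp4*. *Ifi47* overlaps *Olfr56* on the same strand, *Ifi27l2a* overlaps *Ifi27* on the opposite strand, and *Gbp2* overlaps *Mir6381* on the opposite strand. The strand setting of the counting step is not given in the sources used here.

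The host comparisons were made on the same tumors as the knock-down comparisons, so their values are not independent of each other.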

How the data were processed

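RNA of 18 K7M2 tumors was measured after ribosomal depletion with a stranded library kit and paired reads of 75 bp. According to the labels and methods, the authors aligned reads to mm10 with STAR 2.6.0c, removed reads with a quality under 20 (SAMtools 1.8) and PCR duplicates (PicardTools 2.18.2), and computed FPKM with Cufflinks 2.2.1. The table deposited by the authors holds log2 (FPKM + 1) for 20970 entries, of which 92 are spike-ins that were left out of every test. DESeq is also named in the notes of the authors, but counts were not analysed here. The step size of low FPKM values gave an estimate of depth. Only 37.0% to 42.0% of values then lay within 0.1 of a whole fragment, where 20% do by chance, so no count test was run.

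Groups were taken from the labels. Genes averaging 0.1 FPKM or more over the fitted tumors were tested with limma 3.58.1 (R 4.3.3, eBayes with a trend) on log2 (FPKM + 1), where the pseudocount understates changes of low genes. Each pair of groups was fitted alone, and the interaction was tested in a fit of all 4 groups. The p-values were adjusted over all genes tested (Benjamini-Hochberg), and a call needed an adjusted p under 0.05 and a fold of at least 2. Fold ratios compare mean FPKM. Single values were compared with a two-sided exact permutation test in Python 3.11.15. The limma code was tested on simulated data.

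Values per tumor were given for *Irf1*, *Irf7*, *Irf9*, *Stat2*, *Usp18*, *Isg15*, *Ddx58*, and *Ifih1*, and for up to 8 called members per direction. *Ifng*, *Ifnb1*, *Atrx*, and up to 5 called genes of each other list were added, 1 further planned gene is not reported here, and the naming of further members followed sight of their values. The members and lists were chosen with earlier results of these data known. Alternatives were another pseudocount, other filters, median-ratio scaling, removal of the trend with transcript length, library weights, a joint fit, no fold threshold, and leaving out each tumor.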

Additional observations from a re-analysis of the deposited data

Results flagged for a closer look

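In 13 of the 172 groups of tumors checked, 4 groups for each of 43 members, 1 tumor stood apart from the others of its group by the gap test of Dixon, where chance gives about 8.6 (1 in 20). Values are log2 (FPKM + 1), with the range of the other tumors of the group. The NSG *ATRXKD* tumor of mouse 27 was lowest for *Zbp1* at 4.96 (others 5.94 to 6.17) and *Ifi27l2a* at 7.77 (others 8.96 to 9.32). The NSG *ATRXCT* tumor of mouse 2 was highest for *Ifit1* at 6.82 (others 5.84 to 5.99), *Ifit3b* at 4.99 (others 4.13 to 4.38), *Ifi35* at 6.12 (others 5.45 to 5.63), *Gbp2* at 6.73 (others 5.86 to 6.10), and *Igtp* at 5.21 (others 4.41 to 4.59). The Balb/c *ATRXCT* tumor of mouse 45 was lowest for *Oas3* at 2.74 (others 3.57 to 3.71). The NSG *ATRXCT* tumor of mouse 3 was lowest for *Isg15* at 5.93 (others 6.91 to 7.30), *Bst2* at 7.30 (others 7.99 to 8.26), and *Rtp4* at 5.06 (others 5.76 to 6.02). The Balb/c *ATRXCT* tumor of mouse 44 was highest for *Mx2* at 3.27 (others 2.34 to 2.49). The Balb/c *ATRXCT* tumor of mouse 43 was highest for *Gbp7* at 5.71 (others 5.03 to 5.08). The members are not independent of each other, and the flags of 1 tumor can share a source, which was not tested.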

How the results depend on the processing

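Values of FPKM without counts limit what can be said of depth, and 4 to 5 tumors per group limit the precision. Single genes were checked in a chosen set of comparisons, mostly where differences were large. There, 551 values kept their direction and side of the threshold under the alternatives, 33 passed where they had not, and 45 no longer passed. None changed direction, which such a choice makes likely. In *ATRXCT* tumors of NSG against Balb/c hosts, 1 member was called, as higher, where 0.546% of all genes tested were. There were 2 called higher with a pseudocount of 0.1 (1.03% of all genes) or median-ratio scaling (0.587%). The same number was called higher with the length trend removed (0.539%) or library weights (0.803%), and 0 with no filter on low values (0.285%). With no fold threshold, 1 member was higher and 1 lower, against 1.09% and 2.09% of all genes. Without a fold threshold, the NSG knock-down comparison gave 2 lower members, against 3.05% of all genes tested. With library weights, the interaction gave 1 called member, as lower, where 0.838% of all genes were called lower. In that setting, 9 members had a positive interaction estimate instead of 2, and 25 members were higher in NSG *ATRXKD* tumors instead of 7. The cause was not tested.

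Leaving out each tumor in turn gave 0 to 0 called members and 24 to 42 higher means in the Balb/c knock-down comparison, and 0 to 0 and 4 to 22 in the NSG one. It gave 0 to 7 and 29 to 37 for *ATRXCT* tumors between hosts, 2 to 4 and 21 to 28 for *ATRXKD* tumors, and 0 to 0 and 1 to 8 for the interaction. Of all genes tested, 0.338% to 0.807% were then called higher and 0.756% to 1.16% lower for *ATRXCT* tumors between hosts. For *ATRXKD* tumors between hosts, 0.956% to 1.23% were called lower. The direction turned without NSG *ATRXKD* mouse 27 (22 of 43 higher in the NSG knock-down comparison) and without mouse 28 (21 of 43 higher in NSG hosts). *Gbp5* in *ATRXKD* tumors between hosts had an adjusted p of 0.0713 with no filter, and *Ifit3* in *ATRXCT* tumors one of 0.0745 (limma). An ISRE with 1 to 3 letters between both GAAA blocks was found in 24 promoters instead of 21. No paired analysis was possible because the groups share no mouse numbers.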
